A study of Mus musculus with 12 samples.

Results

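Liver cells build triacylglycerol on a glycerol phosphate backbone and keep it in lipid droplets, and the 10 genes described here encode enzymes and coat proteins of that route. They were taken by symbol (Gpam, Agpat2, Lpin1, Dgat1, Dgat2, Plin2, Plin4, Plin5, Cidec and Cideb), each 1 row of a table of 24532 genes, and all 10 passed the filter on low counts that left 13379 genes for testing. The table holds RNA counts of 12 whole-liver libraries from mice of the mixed strain C57BL/6x129S6/SvEv, all 20 wk old, in 3 groups of 4. KO_drug is liver of Atp7b-/- mice that were given a liver X receptor (LXR) agonist in their feed, KO is liver of Atp7b-/- mice without it (libraries 2, 4, 5 and 6), and Het is liver of control mice that the labels call Het. Atp7b encodes the copper-exporting ATPase of the hepatocyte, and its loss causes Wilson disease. The labels give neither the agonist's name, dose and duration nor the sex of the mice, and nothing in them says that the libraries came from separate animals, so p-values measure the spread between these libraries.

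Assembly starts when Gpam puts a first fatty acid on glycerol 3-phosphate at the mitochondrial surface. Agpat2 adds the second fatty acid, Lpin1 removes the phosphate to give diacylglycerol, and Dgat1 or Dgat2 adds the last fatty acid. The product collects in droplets coated by perilipins, of which Plin2 is the main one of hepatocytes, and the CIDE proteins Cidec and Cideb act on droplet fusion and on the lipid loading of very low density lipoprotein. LXR is a nuclear receptor for oxysterols that is known in liver for switching on lipogenesis, in part through the transcription factor gene Srebf1.

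Library totals ran from 18.8 to 20.2 in KO_drug, from 16.5 to 28.3 in KO and from 19.7 to 25.1 in Het, in units of 1e6 counts. Atp7b lay at 1.27 to 3.49 counts per 1e6 counts (CPM) in KO_drug and at 1.68 to 2.71 CPM in KO, against 9.90 to 16.2 CPM in Het. Of 9 known LXR targets, 6 were higher in KO_drug than in KO (Abca1, Abcg5, Abcg8, Lpcat3, Scd1, Srebf1), 8 were higher in KO_drug than in Het (these with Abcg1 and Smpdl3a), and Abcg1 and Smpdl3a were higher in KO than in Het. The library KO_drug 2 stood apart for part of the 9: 8 were at their lowest there among the KO_drug libraries. There, 4 of the 9 lay within or below the KO range (Abca1, Abcg1, Mylip and Smpdl3a). For Abcg1, Mylip and Smpdl3a, other KO_drug libraries did so too. Smpdl3a was lowest in KO_drug 2 by little (53.8 CPM, against 54.1 to 59.1 CPM in the others). Lpcat3 in KO_drug 2 (104.6 CPM) lay above the KO range (45.8 to 65.4 CPM). In KO_drug 2, Abcg5, an intestinal and biliary sterol exporter subunit, was at 79.1 CPM, against 357.4 to 411.0 CPM in the other KO_drug libraries. Scd1, the stearoyl-CoA desaturase, was high in KO_drug 2 (56835 CPM, against 953.2 to 3929 CPM in KO). In the KO group, KO 5 held 81.8 CPM of Xist, the RNA of the inactive X chromosome, with 0.379 CPM of the Y-linked Ddx3y. KO 6 held 17.8 CPM of Xist with 64.4 CPM of Ddx3y, and Xist was at most 0.425 CPM in the other 10 libraries. Values without KO_drug 2, and with KO 2 and KO 4 alone standing for KO, therefore stand beside the results on the 10 genes whose call or direction they change.

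Whole liver mixes cell types, and fewer cells of a type cannot be told apart from less RNA per cell. The summed level of 10 hepatocyte markers was 85838 to 109136 CPM in KO_drug, 61771 to 92910 CPM in KO and 101378 to 167149 CPM in Het. The summed level of 12 macrophage markers was 526.1 to 1189 CPM in KO_drug, 1120 to 2514 CPM in KO and 461.4 to 631.3 CPM in Het. In KO against Het, 7 of the 10 hepatocyte markers fell and 10 of the 12 macrophage markers rose. Likewise 5 of 10 stellate cell, 3 of 8 cholangiocyte, 3 of 8 endothelial and 5 of 6 tested lymphocyte markers rose. In KO_drug against KO, 2 of 10 hepatocyte markers rose, while 7 of 12 macrophage, 6 of 10 stellate cell, 3 of 8 cholangiocyte, 2 of 8 endothelial and 4 of 6 lymphocyte markers fell. In KO_drug against Het, 2 of 10 hepatocyte markers fell, 1 of 12 macrophage markers rose, and 0 of the stellate cell, cholangiocyte, endothelial and lymphocyte markers were called. Over all tested genes, 23.0% rose and 17.7% fell in KO against Het. The shares were 8.80% and 11.0% in KO_drug against KO, and 13.0% and 8.45% in KO_drug against Het. The part of cell mixture in the results on the 10 genes was not tested. Several of the genes are also known from fat cells, so the defining fat cell markers were read: Lep, Plin1 and Retn were at 0 counts in all 12 libraries, and Adipoq had 17 counts over the KO libraries and 0 elsewhere. Of the 10 fat cell markers 3 could be tested. Car3, which hepatocytes also express, had a mean of 854 CPM in KO_drug, 253 CPM in KO and 4290 CPM in Het, and was called in all 3 comparisons (17.0-fold lower in KO against Het, adjusted p = 8.47e-05; 3.38-fold higher in KO_drug against KO, adjusted p = 0.0221; 5.02-fold lower in KO_drug against Het, adjusted p = 0.00423). Cidea, at 0 counts in Het, was called higher in KO against Het (adjusted p = 0.0051) and in KO_drug against Het (adjusted p = 0.0044). It passed the filter on low counts only through the KO and KO_drug libraries, where it was higher. Lipe was not called in any comparison. The summed level of the 10 was 390.2 to 1907 CPM in KO_drug, 122.3 to 387.1 CPM in KO and 2899 to 5145 CPM in Het. Car3 made up most of this sum in every group, so the sum is not a reading of fat cells. The summed level of Adipoq, Lep, Plin1 and Retn was 0 in KO_drug and Het and at most 0.513 CPM in KO.

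Levels here are CPM scaled by the trimmed mean of M values (TMM), and a gene is called at an adjusted p under 0.05 (edgeR quasi-likelihood test, Benjamini-Hochberg over 13379 genes, 4 libraries a group). Plain scaling by total counts moves the median log2 change of all tested genes to 0.54 in KO against Het, to -0.36 in KO_drug against KO and to 0.18 in KO_drug against Het, where TMM leaves it near 0. Under it the calls over all genes in KO against Het were 6909 higher and 460 lower, in place of 3077 higher and 2371 lower with TMM. They were 354 higher and 3901 lower in KO_drug against KO, in place of 1177 and 1477, and in KO_drug against Het 2433 higher and 499 lower, in place of 1735 and 1130. Changes below are relative to the TMM scale, and a direction that total-count scaling turns is named.

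The sequence ahead of the start site is shown for the 3 genes that were higher in KO_drug than in Het and have an entry in the promoter table (Gpam, Plin4 and Cidec), so that the stretch in question can be read beside their levels. These are RefSeq sequences of the GRCm38.p6 assembly, which is the mm10 build of the files, for the 250 bases before each annotated start, 5′ to 3′ on the gene's own strand, which is the minus strand in all 5. Some of these starts lie inside the gene spans given below. The Plin4 window and the first Gpam window therefore run partly into the span. The second Gpam window and the second Cidec window lie wholly inside it. Capitals mark a match to a searched motif.
Gpam, first start, chr19:55127239-55127488: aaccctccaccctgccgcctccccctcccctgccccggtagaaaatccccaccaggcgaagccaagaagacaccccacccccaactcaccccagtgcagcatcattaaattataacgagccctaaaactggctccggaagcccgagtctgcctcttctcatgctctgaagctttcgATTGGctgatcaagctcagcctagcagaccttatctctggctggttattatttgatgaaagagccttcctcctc
Gpam, second start, chr19:55099478-55099727: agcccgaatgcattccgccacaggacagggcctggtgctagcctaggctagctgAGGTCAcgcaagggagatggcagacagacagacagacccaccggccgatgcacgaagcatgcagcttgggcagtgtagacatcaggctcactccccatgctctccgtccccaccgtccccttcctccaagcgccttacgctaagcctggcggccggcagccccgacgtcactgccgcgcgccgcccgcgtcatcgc
Plin4, chr17:56109783-56110032: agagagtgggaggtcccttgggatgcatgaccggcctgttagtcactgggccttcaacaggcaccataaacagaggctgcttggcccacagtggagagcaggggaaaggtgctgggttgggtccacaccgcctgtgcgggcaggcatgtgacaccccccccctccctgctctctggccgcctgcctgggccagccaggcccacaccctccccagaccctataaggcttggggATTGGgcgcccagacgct
Cidec, first start, chr6:113435761-113436010: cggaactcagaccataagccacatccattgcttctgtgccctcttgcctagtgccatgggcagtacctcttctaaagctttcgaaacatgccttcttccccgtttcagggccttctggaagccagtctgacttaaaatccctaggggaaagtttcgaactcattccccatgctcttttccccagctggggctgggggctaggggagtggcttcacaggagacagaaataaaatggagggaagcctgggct
Cidec, second start, chr6:113434765-113435014: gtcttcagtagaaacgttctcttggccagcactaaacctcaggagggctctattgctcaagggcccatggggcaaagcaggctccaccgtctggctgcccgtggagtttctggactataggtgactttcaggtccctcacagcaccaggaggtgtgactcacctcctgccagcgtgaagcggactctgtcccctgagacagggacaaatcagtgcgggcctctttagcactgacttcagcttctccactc
The motifs searched on both strands were AGGTCA (the hexamer that many nuclear receptors bind), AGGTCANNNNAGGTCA (its direct repeat with a spacer of 4, known for LXR), AGGTCANAGGTCA (spacer of 1, known for PPAR), TCACNCCAC (known for SREBP), CACGTG (the E-box of factors such as ChREBP), CCAAT (bound by NF-Y) and TATAAA (the TATA box). The first motif lies inside both repeats. The table matched 8 of the 10 genes (not Dgat1 and Dgat2) with 11 windows. The second Gpam window holds AGGTCA, the first Gpam window and the Plin4 window each hold CCAAT on the opposite strand (printed as ATTGG), and the Cidec windows hold none of the motifs. AGGTCA was in 4 of the 11 windows and in 14% of 32851 windows of all genes, and CCAAT was in 4 of the 11 and in 33.8% of all windows. The spacer-4 repeat was in 0 of the 11 windows and in 0.0152% of all, so its absence from these stretches is what most genes show. The same holds for the spacer-1 repeat (0.0335% of all), for TCACNCCAC (1.05%) and for CACGTG (6.02%). TATAAA was in 1 of the 11 windows and in 12.4% of all.

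In KO against Het, 6 of the 10 genes were called, with 3 higher (Dgat1, Plin4, Cidec) and 3 lower (Gpam, Dgat2, Cideb), where 40.7% of all tested genes were called, 23.0% higher and 17.7% lower. In KO_drug against KO, 2 of the 10 were higher (Gpam, Cidec) and 0 lower, beside 8.80% higher and 11.0% lower over all genes (19.8% in either direction). In KO_drug against Het, 4 of the 10 were higher (Gpam, Dgat1, Plin4, Cidec) and 0 lower, beside 13.0% higher and 8.45% lower over all genes (21.4% in either direction). Groups did not overlap for 5 of the 10 genes in KO against Het (2 higher, 3 lower), beside 39.3% of all genes (22.2% and 17.1%). The same held for 3 of the 10 in KO_drug against KO (all higher), beside 23.9% of all genes (11.4% higher, 12.5% lower), and for 4 of the 10 in KO_drug against Het (all higher), beside 24.6% (13.6% higher, 11.0% lower). The first and the last comparison share the Het libraries, and the first and the second share the KO libraries. Cidec, counted in both comparisons with Het, passed the filter on low counts only through the KO and KO_drug libraries. The median log2 change of the 10 genes was -0.16 in KO against Het, 0.42 in KO_drug against KO and 0.64 in KO_drug against Het, beside medians of 0.018, -0.016 and -0.000020 over all tested genes. With total-count scaling the genes called were 4 higher and 0 lower in KO against Het, 2 higher and 0 lower in KO_drug against KO, and 5 higher and 0 lower in KO_drug against Het. Over all 13379 genes, 6909 were then higher and 460 lower, 354 higher and 3901 lower, and 2433 higher and 499 lower in the same order. Without KO_drug 2, the genes called higher were 2 in KO_drug against KO (Gpam and Agpat2) and 4 in KO_drug against Het (Dgat1, Plin4, Plin5 and Cidec). With each library left out in turn, all genes called in either direction numbered 1632 to 3066 and 2247 to 2863 in these 2 comparisons. The number of all genes higher without KO_drug 2 alone is not given here, so no share stands beside those counts.

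**Figure D1:**
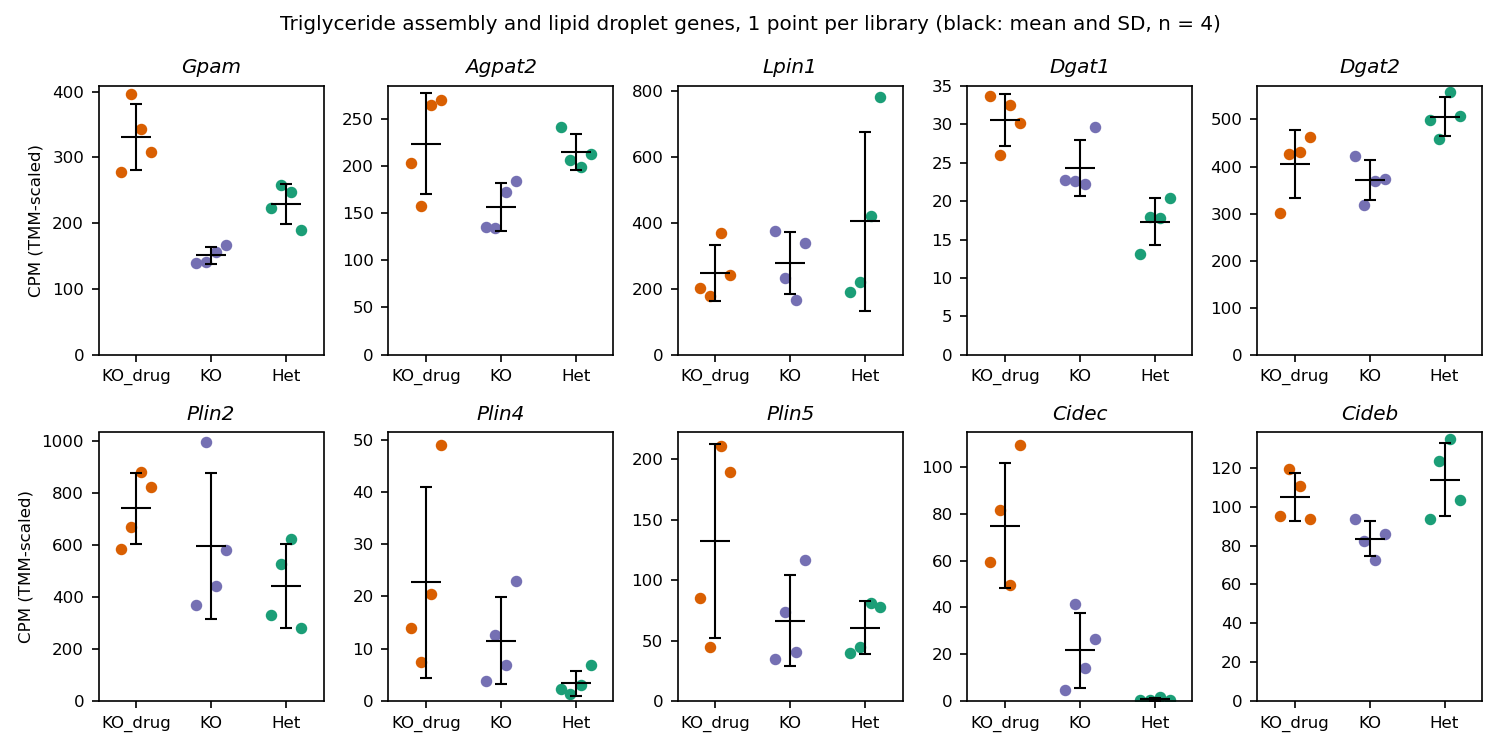
TMM-scaled CPM (vertical axes, from 0) of each of the 10 genes, with 1 point per library in KO_drug, KO and Het, and the mean and SD of 4 libraries in black. Cidec has all 4 KO_drug libraries at 49.5 CPM or more and all 4 Het libraries near 0, while the Lpin1 and Plin5 groups overlap.

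**Figure D2:**
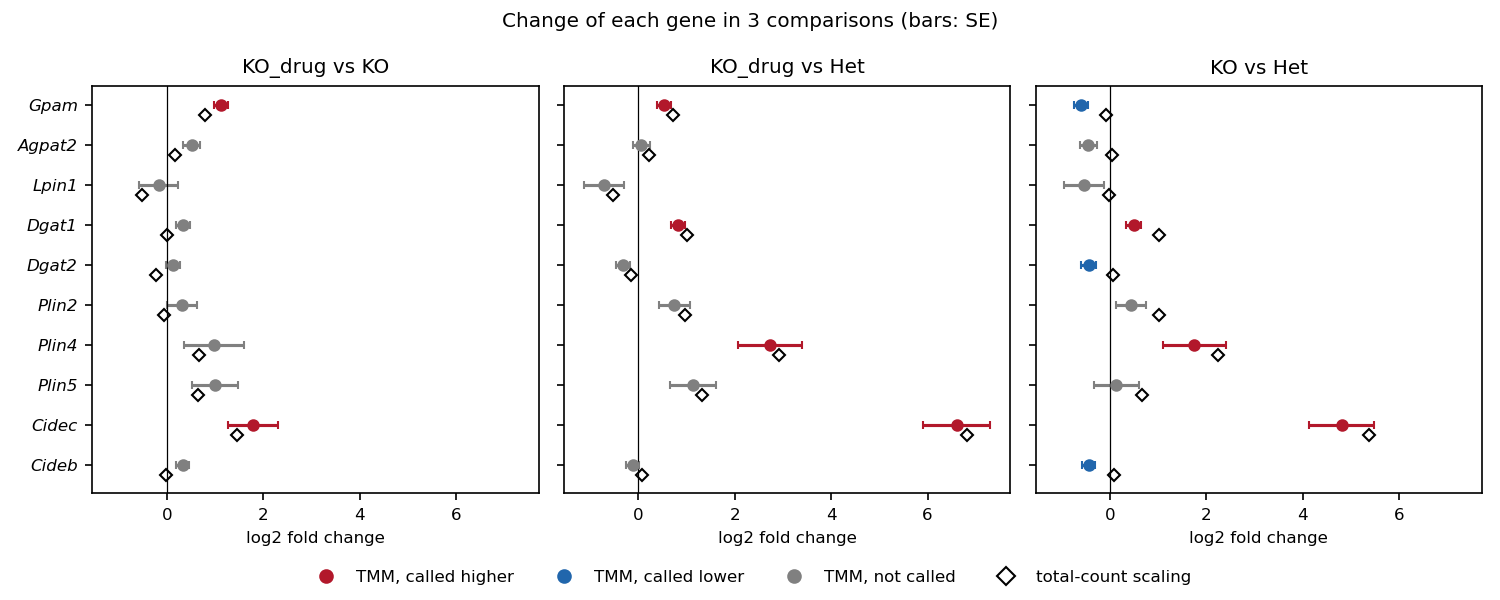
Log2 fold changes (horizontal axes) of the 10 genes in the 3 comparisons, with bars for the SE of the edgeR fit and colour for the call. Cidec lies farthest to the right in all 3 comparisons, at 4.80 in KO against Het, 1.80 in KO_drug against KO and 6.60 in KO_drug against Het.

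Gpam, the acyltransferase of the first step, was high in the livers of agonist-fed mice and low in KO livers. Its level was 277.2, 395.6, 343.1 and 308.7 CPM in KO_drug 1 to 4, then 138.6, 140.7, 156.8 and 167.0 CPM in KO 2, 4, 5 and 6, and 223.0, 257.5, 247.7 and 189.2 CPM in Het 1 to 4. The 3 groups did not overlap, with KO_drug above Het and Het above KO. Gpam rose 2.20-fold in KO_drug against KO (log2 1.14, SE 0.15, adjusted p = 0.000645), and it was called in all 23 alternative analyses. Its level was 1.52-fold lower in KO against Het (log2 -0.61, SE 0.14, adjusted p = 0.00489), and with total-count scaling the log2 change was -0.079 and not called. In KO_drug against Het it rose 1.44-fold (log2 0.53, SE 0.14, adjusted p = 0.0184), but the adjusted p was 0.0533 without KO_drug 2 and 0.0661 without Het 4. Gpam spans chr19:55067635-55127319 (mm10) and overlaps the predicted genes Gm31356 and Gm31418. Whether reads were counted by strand is not given in the sources used here, so reads of overlapping genes cannot be told apart.

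Agpat2, the acyltransferase of the second step, was not called in any comparison. It had 202.7, 157.4, 264.4 and 270.2 CPM in KO_drug 1 to 4, then 134.8, 134.6, 172.5 and 183.5 CPM in KO 2, 4, 5 and 6, and 241.4, 206.2, 198.3 and 212.3 CPM in Het 1 to 4. All 4 KO libraries lay below all 4 Het libraries, and KO_drug 2 was the one KO_drug library inside the KO range. The log2 change was 0.52 (SE 0.18, adjusted p = 0.0558) in KO_drug against KO and -0.46 (SE 0.18, adjusted p = 0.0541) in KO against Het. Without KO_drug 2 both were called (0.66, adjusted p = 0.0194; -0.46, adjusted p = 0.027), and likewise without KO 6 (adjusted p = 0.0485 and 0.0427). With KO 2 and KO 4 alone standing for KO, both were called too (0.77, adjusted p = 0.0289; -0.73, adjusted p = 0.0223). With total-count scaling the change in KO against Het turned to 0.048.

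Lpin1, the phosphatidate phosphatase that also serves as a transcriptional coactivator, varied more within groups than between them. Its level ran from 176.8 to 368.6 CPM in KO_drug, from 166.5 to 373.0 CPM in KO and from 189.7 to 781.5 CPM in Het. Het 4 was highest of the 12 libraries, and all 3 groups overlapped. The log2 changes were -0.17 (SE 0.41) in KO_drug against KO, -0.54 (SE 0.41) in KO against Het and -0.71 (SE 0.41) in KO_drug against Het, with adjusted p = 0.807, 0.317 and 0.252 in that order. At these standard errors a change of that size was not detectable.

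The final acylation is shared by Dgat1 and Dgat2, unrelated enzymes of the endoplasmic reticulum. On the TMM scale their levels changed in opposite directions in KO against Het, Dgat1 up and the more abundant Dgat2 down. Dgat1 had 33.7, 26.1, 32.5 and 30.2 CPM in KO_drug 1 to 4, then 22.7, 22.6, 22.3 and 29.7 CPM in KO 2, 4, 5 and 6, and 13.1, 17.98, 17.78 and 20.5 CPM in Het 1 to 4. All KO_drug and all KO libraries lay above all Het libraries, and KO_drug overlapped KO only through KO 6. Dgat1 rose 1.77-fold in KO_drug against Het (log2 0.82, SE 0.15, adjusted p = 0.00171), in all 22 alternative analyses, and 1.40-fold in KO against Het (log2 0.49, SE 0.15, adjusted p = 0.019). The call in KO against Het was lost without KO 6 (adjusted p = 0.0647) and with KO 2 and KO 4 alone standing for KO (adjusted p = 0.18). It was lost too with only the 2 groups compared and with a replicate block. The log2 change in KO_drug against KO was 0.33 (SE 0.15, adjusted p = 0.132).

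Dgat2 had 301.2, 425.7, 431.0 and 463.2 CPM in KO_drug 1 to 4, then 423.4, 317.8, 369.5 and 373.5 CPM in KO 2, 4, 5 and 6, and 498.8, 458.6, 558.4 and 507.6 CPM in Het 1 to 4. Every KO library lay below every Het library, and KO_drug overlapped both groups, KO_drug 4 alone passing the lowest Het library. Dgat2 was 1.36-fold lower in KO against Het (log2 -0.45, SE 0.15, adjusted p = 0.032). That call was lost without Het 3 (adjusted p = 0.0792), Het 4 (0.056), KO 4 (0.0951), KO 5 (0.0651) or KO 6 (0.0639), and with KO 2 and KO 4 alone standing for KO (0.0833), and with total-count scaling the log2 change turned to 0.069. The log2 change was 0.13 (SE 0.15, adjusted p = 0.595) in KO_drug against KO and -0.32 (SE 0.15, adjusted p = 0.161) in KO_drug against Het.

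Of the 3 perilipins, Plin4 was called and Plin2 and Plin5 were not. Plin2, the constitutive droplet coat protein of hepatocytes, had 587.1, 671.2, 882.5 and 824.7 CPM in KO_drug 1 to 4, then 368.1, 997.7, 442.2 and 579.5 CPM in KO 2, 4, 5 and 6, and 330.6, 528.1, 623.7 and 282.7 CPM in Het 1 to 4. KO 4 was highest of all, and the groups overlapped pairwise. The log2 change in KO_drug against Het was 0.75 (SE 0.32, adjusted p = 0.114), and with total-count scaling it was 0.96 and called (adjusted p = 0.037). For KO against Het it was 0.44 (SE 0.32, adjusted p = 0.291), and with total-count scaling 1.01 and called (adjusted p = 0.0128). For KO_drug against KO it was 0.31 (SE 0.32, adjusted p = 0.521), with -0.050 under total-count scaling.

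Plin4, a perilipin best known from fat cells and muscle, had 13.9, 7.56, 20.5 and 49.0 CPM in KO_drug 1 to 4, then 3.90, 12.6, 6.86 and 22.9 CPM in KO 2, 4, 5 and 6, and 2.37, 1.40, 3.02 and 6.89 CPM in Het 1 to 4. Every KO_drug library lay above every Het library, though KO_drug 2 by little over Het 4, and KO overlapped both. Plin4 rose 6.63-fold in KO_drug against Het (log2 2.73, SE 0.67, adjusted p = 0.0109), with log2 changes of 2.03 without KO_drug 4 and 3.31 without Het 4, and was called in all 22 alternatives. In KO against Het it rose 3.36-fold (log2 1.75, SE 0.66, adjusted p = 0.0478), on the edge of the threshold. That call was lost without Het 1 (adjusted p = 0.111), Het 2 (0.117), Het 3 (0.0966), KO 4 (0.0837), KO 6 (0.169), KO_drug 1 (0.0501) or KO_drug 3 (0.0592), and the log2 change was 1.18 without KO 6 and 2.33 without Het 4. With KO 2 and KO 4 alone standing for KO it was 1.19 and not called (adjusted p = 0.225). The call was also lost without the filter on low counts and with limma voom. Between KO_drug and KO its log2 change was 0.98 (SE 0.62, adjusted p = 0.283). Plin4 spans chr17:56100587-56109948 and overlaps Hdgfl2.

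Plin5, which tethers droplets to mitochondria, had 85.0, 45.0, 210.9 and 189.7 CPM in KO_drug 1 to 4, then 34.7, 74.1, 40.8 and 116.9 CPM in KO 2, 4, 5 and 6, and 39.4, 44.3, 80.8 and 78.2 CPM in Het 1 to 4. KO_drug 3 and KO_drug 4 were the highest libraries, KO_drug 2 lay among the low Het and KO libraries, and all groups overlapped. The log2 change was 0.99 (SE 0.48, adjusted p = 0.162) in KO_drug against KO, 0.13 (SE 0.48, adjusted p = 0.843) in KO against Het and 1.13 (SE 0.48, adjusted p = 0.116) in KO_drug against Het. The last was 1.42 and called without KO_drug 2 (adjusted p = 0.035), and the change in KO against Het was -0.22 with KO 2 and KO 4 alone standing for KO (adjusted p = 0.789). Within the KO group, KO 2 was lowest and KO 4 and KO 6 the top pair for Plin2, Plin4, Plin5 and Cidec alike.

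Cidec, the CIDE protein that enlarges droplets and is a hallmark of fat cells, had the widest change of the 10 genes. It had 59.3, 81.8, 49.5 and 109.3 CPM in KO_drug 1 to 4, then 4.66, 41.5, 13.9 and 26.6 CPM in KO 2, 4, 5 and 6, and 0.258, 0.624, 1.59 and 0.612 CPM in Het 1 to 4. The Het values rest on 5, 12, 30 and 12 counts. At these counts Cidec passed the filter on low counts only through the KO and KO_drug libraries, where it was higher. Its calls against Het carry that limit. The 3 groups did not overlap, and the KO libraries spread most, from KO 2 to KO 4. Cidec rose 27.9-fold in KO against Het (log2 4.80, SE 0.67, adjusted p = 0.000151) and 97.1-fold in KO_drug against Het (log2 6.60, SE 0.70, adjusted p = 2.12e-05). Both were called in all alternatives (23 and 22). Without Het 3 the log2 changes were 5.42 and 7.21. In KO_drug against KO it rose 3.48-fold (log2 1.80, SE 0.52, adjusted p = 0.0287). That call was lost without KO_drug 2 (log2 1.76, adjusted p = 0.0545), which was second highest for Cidec. It was also lost without KO_drug 4 (1.56, 0.0768) or KO 5 (1.63, 0.0664), and with KO 2 and KO 4 alone standing for KO (1.74, 0.103). Cidec spans chr6:113424634-113435760 and overlaps the predicted gene Gm52871.

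Cideb, the CIDE protein that hepatocytes normally express, had 95.23, 119.3, 110.7 and 93.87 CPM in KO_drug 1 to 4, then 93.62, 82.1, 72.3 and 86.1 CPM in KO 2, 4, 5 and 6, and 93.55, 123.5, 135.0 and 103.4 CPM in Het 1 to 4. Every KO_drug library was above every KO library, with KO_drug 4 just above KO 2, and KO overlapped Het through KO 2, which lay just above Het 1. Cideb was 1.36-fold lower in KO against Het (log2 -0.45, SE 0.14, adjusted p = 0.0214). That call was lost without Het 2 (adjusted p = 0.0569), Het 3 (0.0691), KO 4 (0.0548) or KO 5 (0.0693), and with KO 2 and KO 4 alone standing for KO (0.0924), and total-count scaling turned the log2 change to 0.089. The log2 change was 0.33 (SE 0.14, adjusted p = 0.118) in KO_drug against KO and -0.12 (SE 0.14, adjusted p = 0.602) in KO_drug against Het. Cideb overlaps Nop9 and Ltb4r2 on chr14.

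Ratios between related genes within a library do not depend on the scaling between libraries. They were taken from the authors' FPKM (fragments per kilobase of gene model and per 1e6 fragments), which corrects for gene length. Dgat1 stood at 9.12 ± 2.69% of Dgat2 in KO_drug, 7.70 ± 1.33% in KO and 3.997 ± 0.767% in Het (mean ± SD, n = 4 each). Both Atp7b-/- groups lay above Het without overlap, by 2.25-fold in KO_drug against Het and 1.93-fold in KO against Het, as ratios of geometric means (exact permutation test, two-sided, p = 0.0286 each). KO_drug overlapped KO (1.16-fold, exact p = 0.429).

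Cidec stood at 42.5, 46.8, 30.5 and 79.8% of Cideb in KO_drug 1 to 4, at 3.38, 34.5, 13.1 and 21.0% in KO 2, 4, 5 and 6, and at 0.186, 0.343, 0.793 and 0.376% in Het 1 to 4. The ratio was 126-fold higher in KO_drug than in Het and 36.1-fold higher in KO than in Het, with no overlap (exact p = 0.0286 each). KO 4 overlapped the KO_drug libraries (exact p = 0.0571). Plin4 as a share of Plin2 (0.963% in KO_drug, 0.640% in KO and 0.318% in Het) and Plin5 as a share of Plin2 (16.3%, 11.0% and 14.6% in the same order) overlapped between all groups. With 4 libraries a group the exact test cannot go below 0.0286, and adjusted over the 12 ratio tests the smallest value was 0.0857, so none passed 0.05.

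**Figure D3:**
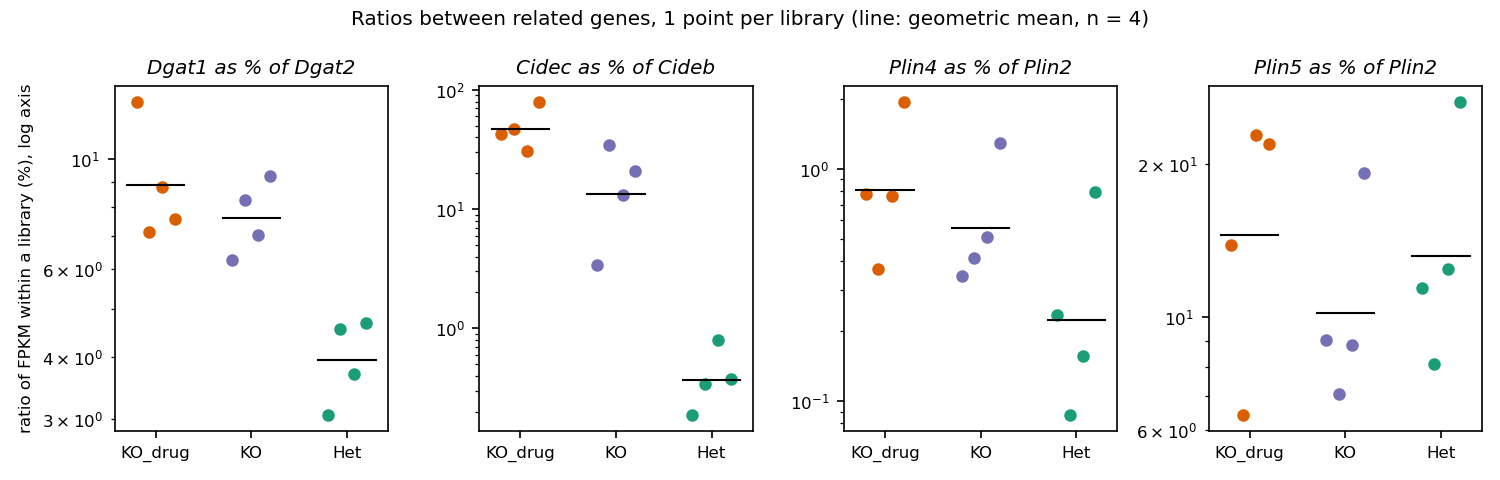
Ratio of FPKM between related genes within each library, in percent on a log axis, with 1 point per library in KO_drug, KO and Het and a line at the geometric mean of 4 libraries. Cidec as a percent of Cideb separates KO_drug (30.5 to 79.8%) and KO (3.38 to 34.5%) from Het (0.186 to 0.793%), while the perilipin ratios overlap.

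By mean FPKM, the order in KO_drug ran from Plin2 (301.8) over Dgat2 (138.6), Agpat2 (109.5), Cideb (68.7), Gpam (66.5), Plin5 (51.3), Cidec (34.0) and Lpin1 (33.7) to Dgat1 (12.2) and Plin4 (3.08). In KO it ran from Plin2 (316.4) over Dgat2 (162.5), Agpat2 (97.8), Cideb (70.3), Lpin1 (48.8), Gpam (38.9), Plin5 (33.0) and Cidec (12.6) to Dgat1 (12.4) and Plin4 (1.96). In Het it ran from Plin2 (155.9) over Dgat2 (153.7), Agpat2 (94.0), Cideb (65.5), Lpin1 (49.3), Gpam (40.7), Plin5 (20.9) and Dgat1 (6.06) to Plin4 (0.408) and Cidec (0.286). Cidec was thus last in Het and above Dgat1 and Plin4 by mean in both Atp7b-/- groups. Neighbours whose libraries did not overlap were Plin2 with Dgat2, Lpin1 with Dgat1 and Dgat1 with Plin4 in KO_drug. In KO they were Plin2 with Dgat2, Dgat2 with Agpat2, Agpat2 with Cideb, and Dgat1 with Plin4. In Het they were Dgat2 with Agpat2, Agpat2 with Cideb, Gpam with Plin5, Plin5 with Dgat1, and Dgat1 with Plin4. All other neighbours in these orders overlapped.

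The other genes of triacylglycerol assembly and droplets were read from a list of 47, of which 45 could be tested. Plin1 was at 0 counts, 1 gene was not matched by name, and Gpat3 stands in the table under its older name Agpat9. In KO against Het, 14 of the 45 rose and 11 fell, beside 23.0% and 17.7% of all tested genes. In KO_drug against KO, 12 rose and 3 fell, beside 8.80% and 11.0%. In KO_drug against Het, 16 rose and 3 fell, beside 13.0% and 8.45%. The rises against Het include Cidea, Mogat1, Mogat2 and Pnpla3, which passed the filter on low counts only through libraries of the Atp7b-/- groups. With total-count scaling the counts were 24 and 4, 10 and 6, and 21 and 0 in the same order. Over all 13379 genes they were then 6909 and 460, 354 and 3901, and 2433 and 499. The median log2 change over the 45 was 0.26 in KO_drug against KO, -0.0048 in KO against Het and 0.31 in KO_drug against Het. Without KO_drug 2, an alternative for this list chosen after seeing the data, the counts were 11 higher and 1 lower in KO_drug against KO, and 16 higher and 3 lower in KO_drug against Het. With each library left out in turn, all genes called in either direction numbered 1632 to 3066 and 2247 to 2863 in the same order. The numbers of all genes higher and lower without KO_drug 2 alone are not given here, so no share stands beside those counts.

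Among the acyltransferases of the first step, Agpat9, an enzyme of the endoplasmic reticulum and the main form in fat cells, was at 40.5 ± 7.77 CPM in KO_drug, 28.6 ± 9.87 CPM in KO and 4.70 ± 1.80 CPM in Het (SD, n = 4 each). It rose 6.08-fold in KO against Het (adjusted p = 4.74e-05) and 8.61-fold in KO_drug against Het (adjusted p = 1.52e-05). Gpat4, the main form of liver endoplasmic reticulum, rose 2.62-fold in KO_drug against KO (adjusted p = 0.00242). It had 324.5, 165.3, 366.6 and 426.9 CPM in KO_drug 1 to 4, with KO_drug 2 lowest, against 98.9 to 142.3 CPM in KO.

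Mogat1 and Mogat2 encode monoacylglycerol acyltransferases, which make diacylglycerol without a phosphatidate step. Mogat1 had 32.4, 16.9, 8.44 and 16.5 CPM in KO_drug 1 to 4, then 1.64, 6.30, 17.9 and 13.3 CPM in KO 2, 4, 5 and 6, and 15 counts in all over the Het libraries. It rose in KO against Het (log2 5.61, SE 0.92, adjusted p = 0.000466) and in KO_drug against Het (log2 6.54, SE 0.92, adjusted p = 0.000248). Mogat2 rose in KO against Het (log2 5.25, SE 0.87, adjusted p = 0.000491), with 241 counts over the KO libraries and 4 over the Het libraries. With so few Het counts these fitted folds are imprecise. Both genes passed the filter on low counts only through libraries of the Atp7b-/- groups, where they were higher. Their calls against Het carry that limit.

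Acsl1, the main acyl-CoA synthetase of liver, fell in KO and was high with the agonist. It had 1753, 1453, 2164 and 1976 CPM in KO_drug 1 to 4, then 343.2, 390.7, 588.1 and 586.1 CPM in KO 2, 4, 5 and 6, and 1380, 2040, 2467 and 1538 CPM in Het 1 to 4. Every KO library lay below all others. Acsl1 was 3.89-fold lower in KO livers than in Het livers (adjusted p = 6.17e-05) and 3.85-fold higher in KO_drug than in KO (adjusted p = 0.000583).

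In KO_drug against KO, 2 of 3 tested genes of droplet formation, 1 of 8 of the coat and 3 of 7 of lipolysis rose and 0 fell. Over all tested genes, 8.80% rose and 11.0% fell there. In KO against Het, 0 of 3, 2 of 8 and 1 of 7 rose in the same order, and 1, 2 and 1 fell, beside 23.0% and 17.7% over all tested genes. The coat rises there include Cidea, and the lipolysis rise is Pnpla3. Both genes passed the filter on low counts only through libraries of the Atp7b-/- groups, where they were higher. Fitm1, a membrane protein of droplet budding, rose 3.59-fold in KO_drug against KO (51.5 ± 17.5 and 14.4 ± 2.84 CPM, adjusted p = 0.00242). Hsd17b11, a dehydrogenase found on droplets, rose 2.39-fold in the same comparison (92.5 ± 16.6 and 38.8 ± 4.89 CPM, adjusted p = 0.000488). Pnpla3, a droplet acylhydrolase known for its link to human fatty liver, had 16.3, 4.43, 41.0 and 14.97 CPM in KO_drug 1 to 4 and 0.102 to 0.722 CPM in Het. It rose 48.5-fold in KO_drug against Het (adjusted p = 5.49e-05), and KO_drug 2 was the lowest of its group here too. Mgll, the monoacylglycerol lipase, was 2.31-fold lower in KO livers than in Het livers (72.1 ± 27.4 and 167 ± 14.5 CPM, adjusted p = 0.00294). Bscl2, which encodes seipin of the droplet neck, was 1.45-fold lower in KO livers (adjusted p = 0.00176) and 1.36-fold lower in KO_drug livers, each relative to Het (adjusted p = 0.0107), neither called with total-count scaling.

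Of the genes of lipid transfer, Ces1g, a carboxylesterase, was at 365 ± 35.3 CPM in KO_drug, 290 ± 85.4 CPM in KO and 76.7 ± 30.0 CPM in Het. It rose 4.77-fold in KO_drug against Het (adjusted p = 8.63e-05) and 3.78-fold in KO against Het (adjusted p = 0.000197). Ces1g belongs to a cluster of close paralogs among which reads may be split. Aadac, an esterase of the endoplasmic reticulum, was 1.94-fold lower in KO livers (adjusted p = 0.00115) and 1.46-fold lower in KO_drug livers, each relative to Het (adjusted p = 0.0433), and the second of these was not called with total-count scaling. Gk, the glycerol kinase, was 1.57-fold lower in KO_drug livers than in Het livers (adjusted p = 0.0165), also not called with total-count scaling. The 3 genes that fell in KO_drug against KO were the phosphatases Plpp1 (1.49-fold lower, adjusted p = 0.0159) and Plpp2 (1.29-fold lower, adjusted p = 0.0243) and the acyltransferase Agpat4 (2.27-fold lower, adjusted p = 0.0472).

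**Figure D4:**
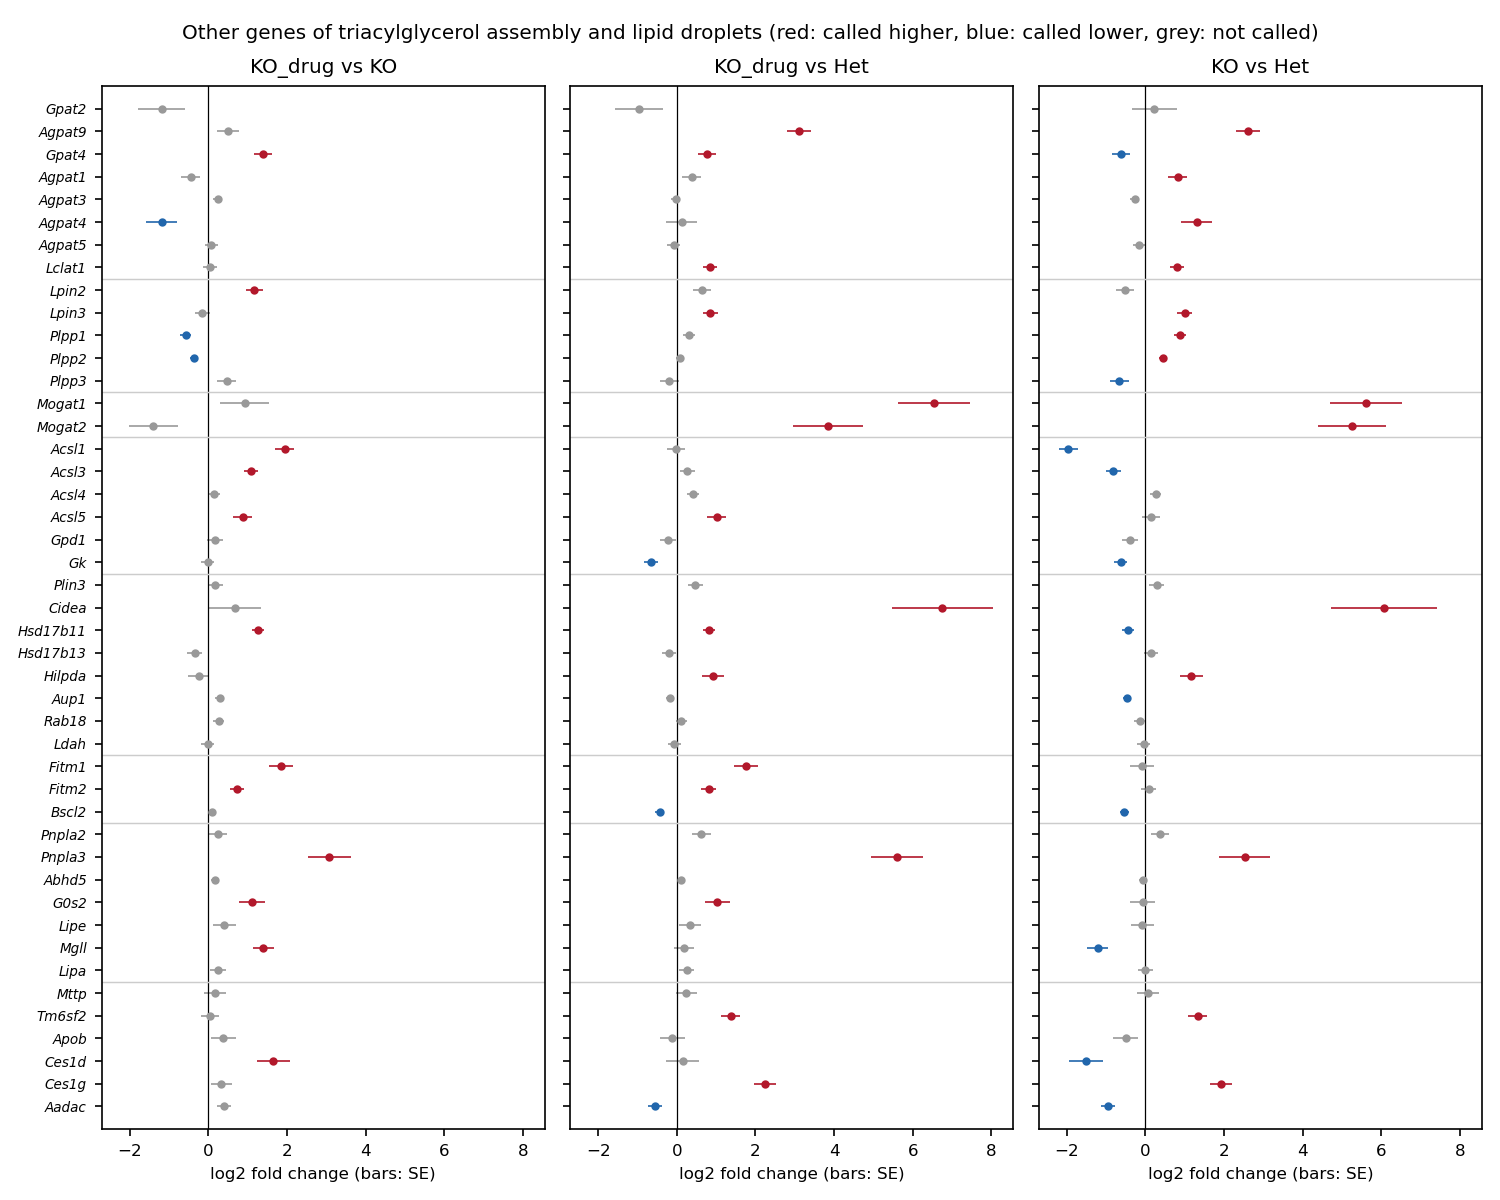
Log2 fold changes (horizontal axes) of the 45 other tested genes of triacylglycerol assembly and lipid droplets in the 3 comparisons, with bars for the SE and colour for the call (red higher, blue lower, grey not called). Mogat1 lies far to the right in KO against Het (5.61) and in KO_drug against Het (6.54), and Acsl1 lies at -1.96 in KO against Het and 1.94 in KO_drug against KO.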

How the data were processed

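Per the labels' protocols, liver was flash-frozen, RNA was extracted (RNeasy mini kit) and sequencing libraries were prepared (TruSeq Stranded Total RNA). FastQC 0.11.7, StringTie 2.1.3b and build mm10 are named in the submitters' processing notes; which aligner and strand setting served is not given in the sources used here. As deposited by the authors, 1 table gives whole-number read counts per gene and library, not normalized, together with FPKM: the deposited FPKM, scaled by the authors to gene length and library size, served for ratios, level order and 2 alternatives (log2 of FPKM plus 0.1 or 1). Its 3 unnamed columns, filled for 4 genes, were left out.

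The filter (filterByExpr, at least 10 counts and 15 in total) passed 13379 of 24532 genes. All 12 libraries entered 1 edgeR 4.0.16 quasi-likelihood fit (R 4.3.3) on the counts with 3 group means and TMM scaling. P-values are two-sided with Benjamini-Hochberg adjustment across the 13379. SE is the absolute log2 change over the root of F. The fit was tested on simulated data. Alternatives used other scalings, no filter, DESeq2 1.42.0, limma 3.58.1 with voom, the 2 groups compared only, a replicate block, Mup genes left out, KO 2 and KO 4 only, and each library left out. Floors cover counting error only.

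The 10 genes and the lists were chosen with earlier results of these data known. All 10 are named in each comparison; of the 47 other genes, up to 4 called rises and 4 called falls per comparison with the smallest adjusted p are named. No pair of libraries within a group was a duplicate: chi-square per degree of freedom was 37.2 or more. Pairs from different groups were not checked in this way.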

Additional observations from a re-analysis of the deposited data

Results flagged for a closer look

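Dgat1 in KO 6 was 29.7 CPM, far from the other 3 KO libraries at 22.3 to 22.7 CPM. The gap took 0.938 of the whole range of the group, above Dixon's 95% critical value for 4 samples. Of 30 groups of 4 examined for the 10 genes this was the only one, and chance marks about 1 group in 20. Without KO 6 the log2 change of Dgat1 in KO against Het was 0.38, with an adjusted p of 0.0647 (edgeR).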

How the results depend on the processing

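Over 680 values of single genes under alternatives, 593 kept direction and side of the threshold, 37 lost the call, 19 gained it and 31 turned sign; the cause was not tested. All genes called in KO_drug against KO numbered 2654, and 4255 with total-count scaling, 4781 on log2(FPKM + 0.1), 4923 on log2(FPKM + 1) and 1632 to 3066 with each library left out. The 6 of the 10 genes called in KO against Het became 3 with KO 2 and KO 4 alone standing for KO and 3 to 7 with a library left out. All genes called there numbered 5448, and 4687 to 5597 with a library left out. The 2 of the 10 genes called in KO_drug against KO became 1 to 3 with a library left out. All genes called in KO against Het with KO 2 and KO 4 alone, or with a replicate block, are not given here. The counts of the 10 in those settings thus have no share of all genes beside them. Log2 changes that turned sign with total-count scaling were, in KO against Het, Agpat2 0.048, Dgat2 0.069 and Cideb 0.089; in KO_drug against KO, Dgat1 -0.0029, Dgat2 -0.21, Plin2 -0.050 and Cideb -0.017; and in KO_drug against Het, Cideb 0.073. On log2(FPKM + 0.1) they were, in KO against Het, Agpat2 0.070, Lpin1 0.16, Dgat2 0.086 and Cideb 0.099; in KO_drug against KO, Dgat1 -0.022, Dgat2 -0.24 and Cideb -0.031; and in KO_drug against Het, Cideb 0.067. On log2(FPKM + 1) they were 0.069, 0.15, 0.085 and 0.097, then -0.020, -0.24 and -0.031, then 0.066 for the same genes in the same order. Plin5 in KO against Het was -0.22 with KO 2 and KO 4 only and -0.28 to 0.35 with a library left out. With a library left out, Lpin1 in KO_drug against KO ran from -0.43 to 0.0020, and Agpat2 in KO_drug against Het from -0.043 to 0.20. Nothing in the labels says what equal replicate numbers share. Over 8 same-numbered pairs the correlation of deviations was -0.035 to 0.136 (median 0.089, 3 of 8 over 0.1), against a median of -0.036 over 40 other pairs, which falls short of every pair being over 0.1, so the block was not used. With the replicate block, 1741 genes were called in KO_drug against KO, 3 of the 10 in KO against Het (not Dgat1, adjusted p = 0.203, Dgat2, 0.135, or Cideb, 0.103; Plin5 at -0.095), Plin4 in KO_drug against KO was called (1.48, adjusted p = 0.0069), as was Plin5 in KO_drug against Het (0.97, adjusted p = 0.017), and Cidec in KO_drug against KO was not (2.41, adjusted p = 0.0595). Limits of depth bear most on Cidec, Plin4, Mogat1 and Mogat2 in Het, where few counts set the level.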

Other observations

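Transcription factors of lipid metabolism were read beside the 10 genes, from a list of 6. Srebf1, the lipogenic SREBP gene, had 353.7, 84.8, 518.1 and 565.6 CPM in KO_drug 1 to 4, against 34.8 to 67.5 CPM in KO and 59.9 to 107.8 CPM in Het. It rose 6.92-fold in KO_drug against KO (adjusted p = 0.00203) and 4.24-fold in KO_drug against Het (adjusted p = 0.00447), and KO_drug 2 lay within the Het range. Mlxipl, which encodes the carbohydrate response factor ChREBP, was 2.26-fold lower in KO livers than in Het livers (12.2 ± 3.47 and 27.8 ± 6.69 CPM, adjusted p = 0.0032) and 4.20-fold higher in KO_drug than in KO (51.6 ± 16.0 CPM in KO_drug, adjusted p = 0.000654). It also rose 1.86-fold in KO_drug against Het (adjusted p = 0.0246).

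Ppara, the fatty acid receptor gene, had 181.5, 445.5, 286.5 and 312.8 CPM in KO_drug 1 to 4, and KO_drug 2 was highest. It was 1.98-fold higher in KO_drug than in KO (adjusted p = 0.0184) and 1.70-fold lower in KO livers than in Het livers (adjusted p = 0.029), neither called with total-count scaling. Pparg, known for driving Cidec and Plin4 in fat cells, was not called in any comparison, with 10.1 ± 3.61 CPM in KO_drug, 6.997 ± 1.18 CPM in KO and 8.66 ± 2.88 CPM in Het.

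Cidea, the third CIDE gene, was singled out after its values were seen and lay under 1 CPM in every library. It had 46 counts over the KO_drug libraries, 38 over the KO libraries and 0 over the Het libraries. Against a floor of 3 counts over the Het libraries this was at least 15.5-fold higher in KO_drug and at least 10.1-fold higher in KO. Both were called (adjusted p = 0.0044 in KO_drug against Het and 0.0051 in KO against Het). With 0 counts in Het, Cidea passed the filter on low counts only through the KO and KO_drug libraries. These calls therefore add no support to the counts they were picked from. The adjusted p-values are from edgeR's quasi-likelihood test.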
